A study of Mus musculus with 11 samples.

Results

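mmu-miR-155, mmu-miR-21 and mmu-miR-132 are 3 of the 566 mouse miRNAs counted in the whole oviduct of female mice of the outbred CD1 strain, 24 h after an intraperitoneal injection. They were picked by probe name, as miRNAs widely studied in inflammation, with earlier results of these data known. The groups were 3 control mice given 0 µg of lipopolysaccharide (LPS), 4 low dose mice given 2 µg and 4 high dose mice given 10 µg. LPS is the outer membrane glycolipid of Gram-negative bacteria, here from Escherichia coli serotype 055:B5, in 100 µL of phosphate-buffered saline. All mice were 6 to 8 weeks old and at estrus when injected, and each lane of the assay held the RNA of 1 mouse. The design text plans 4 mice per treatment, and a 4th control was not analysed here. The assay was the nCounter mouse miRNA panel, which counts fluorescent barcodes bound to tagged miRNAs without amplification. The question asked of the 3 miRNAs was whether, and at which dose, their level in the oviduct changes with LPS.

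A miRNA is a short RNA that guides Argonaute proteins to messenger RNAs, mainly by pairing of its seed, bases 2 to 8 from the 5′ end, and lowers the output of those messenger RNAs. LPS acts through Toll-like receptor 4, which activates NF-κB and AP-1. miR-155 is made from the transcript once called BIC, is known to be induced by Toll-like receptor ligands in macrophages and dendritic cells, and targets Socs1 and Inpp5d, both brakes on inflammatory signalling. miR-21 is abundant in most tissues, is known to be induced by AP-1, STAT3 and NF-κB, and targets Pdcd4, an inhibitor of translation. miR-132 is known as a CREB-responsive miRNA of neurons and of activated monocytes and targets Ep300 and, in neurons, Arhgap32.

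The mature sequences are shown because the seed decides which messenger RNAs each miRNA can pair with, and because near-identical relatives could share a probe. The seed is in capitals. Sequences and positions are those of RefSeq on GRCm38.p6, matched by name to the dominant arm, since the panel's names carry no arm.
miR-155-5p: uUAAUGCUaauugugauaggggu
miR-21a-5p: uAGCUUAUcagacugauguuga
miR-21c: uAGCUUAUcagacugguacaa
miR-132-3p: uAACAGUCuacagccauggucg
miR-212-3p: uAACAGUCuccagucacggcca

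The 3 members have 3 different seeds. miR-155-5p lies at chr16:84714143-84714165 on the plus strand, within the span of the long noncoding RNA gene Mir155hg, and no other mature miRNA of the RefSeq table has its seed. miR-21a-5p lies at chr11:86584120-86584141 on the minus strand, within the span of the protein-coding gene Vmp1. It shares its seed with miR-21c, and 16 of the 21 positions compared from the 5′ end are identical. No probe of the panel was matched to miR-21c, and whether the miR-21 probe also reads it was not tested. miR-132-3p lies at chr11:75173723-75173744 on the plus strand, close to miR-212-3p, which is made from the same primary transcript, has the same seed and matches it at 17 of 22 positions.

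The 11 lanes held between 451323 and 684771 miRNA counts, and 205 miRNAs were detected, meaning that they exceeded the mean plus 2 SD of a lane's 8 negative control probes in at least 3 lanes. All 3 members were above that bound in all 11 lanes. By mean normalized count, miR-21 stood at place 21 of 205, miR-155 at 90 and miR-132 at 99, on the scale of counts per probe, which also reflects how well each probe captures its target. Lanes ran in group order, so the effects of treatment and of position among the lanes cannot be told apart. Set against marker miRNAs of the tissue, 7 of 7 epithelial, 3 of 4 ciliated cell and 2 of 2 smooth muscle miRNAs were detected, while liver miR-122 was not. Low or partial signals came from other tissues' lists: miR-128, 1 of 3 neuronal miRNAs, at 64 to 104 counts, miR-202-3p, 1 of 5 of ovary and oocyte, at 66 to 99, and the muscle miRNAs miR-1, at 185 to 1366, and miR-133a, at 139 to 236.

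miR-155 was higher in high dose oviducts than in control oviducts, by 1.65-fold, and the low dose mice lay between. Its normalized counts, scaled to the mean library by TMM, edgeR's trimmed mean of M-values, were 358, 402 and 372 in control mice, 449, 529, 484 and 512 in low dose mice, and 640, 646, 485 and 715 in high dose mice. All LPS mice stood above all control mice, and the high dose overlapped the low dose only through high dose mouse 3, at 485. The means were 377 ± 22.9 in controls (SD, n = 3), 493 ± 35.0 at the low dose and 622 ± 97.4 at the high dose (SD, n = 4 each). In a bulk sample, more cells that carry a miRNA and more of it per cell cannot be told apart.

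At the high dose the log2 change of miR-155 against control was 0.72 ± 0.13 SE, with a 95% interval of 0.45 to 0.99 (edgeR quasi-likelihood test, adjusted p = 0.00174). At the low dose it was 0.39 ± 0.13, with an interval of 0.12 to 0.66, and did not pass (edgeR adjusted p = 0.0767). High dose mice stood 0.33 ± 0.11 above low dose mice, which also did not pass (edgeR adjusted p = 0.166). Without high dose mouse 3, whose count was the lowest of its group, the high against low dose difference was 0.44 ± 0.091 (edgeR adjusted p = 0.0124). The low dose change against control was then 0.39 ± 0.093 and passed (edgeR adjusted p = 0.0252). That mouse's gap to the next, 0.674 of the group's range of normalized counts, is under Dixon's 95% critical value for an outlier. Without any other single mouse neither difference passed. The edgeR adjusted p was then 0.216 to 0.427 between doses and 0.0650 to 0.192 at the low dose. Leaving out high dose mouse 3 also took the miRNAs called between doses from 1 to 14, so its effect was not confined to miR-155. The spread of miR-155 between high dose mice, a coefficient of variation of 15.7%, exceeded the 4.16% that counting alone would give.

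At the high dose, 2 of the 3 members rose, against 10.2% of the 205 miRNAs that rose there, and at the low dose 1 of 3, against 3.41%. The members were chosen with earlier results of these data known, so these shares describe them and are no independent support. Between the doses no member passed, against 0.488% of miRNAs that were higher at the high dose. Both miR-155 and miR-21 had every high dose mouse above every control mouse, which held for 13.7% of the 205, and every low dose mouse above every control mouse, which held for 10.7%. No member separated the doses in that way, as 2.93% of miRNAs did. By size of the log2 change at the high dose, miR-155 was 12th of 205 from the top, miR-21 20th and miR-132 43rd. At the low dose the places were 23, 11 and 59. Both sets of changes share the 3 control mice.

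**Figure D1:**
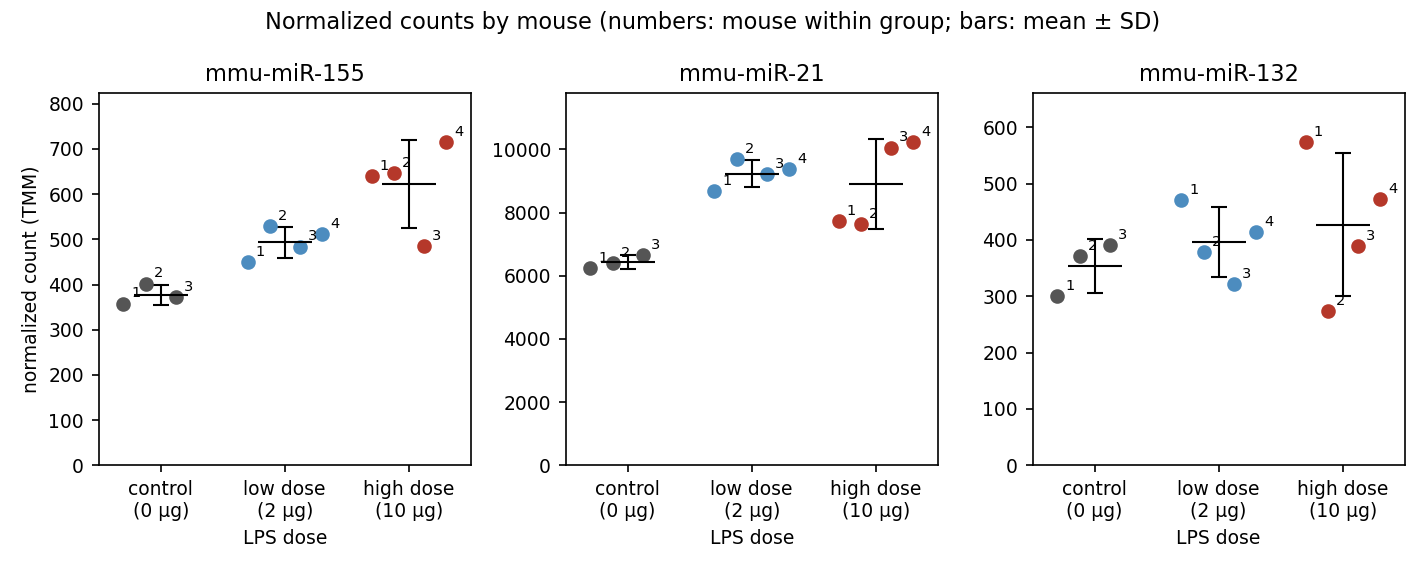
TMM-normalized count (y axes, from 0) of each member in each mouse at 0, 2 and 10 µg of LPS (x axes), with points numbered by mouse and bars for mean ± SD. miR-155 and miR-21 lie above all control mice in every LPS mouse, while miR-132 overlaps control at both doses.

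**Figure D2:**
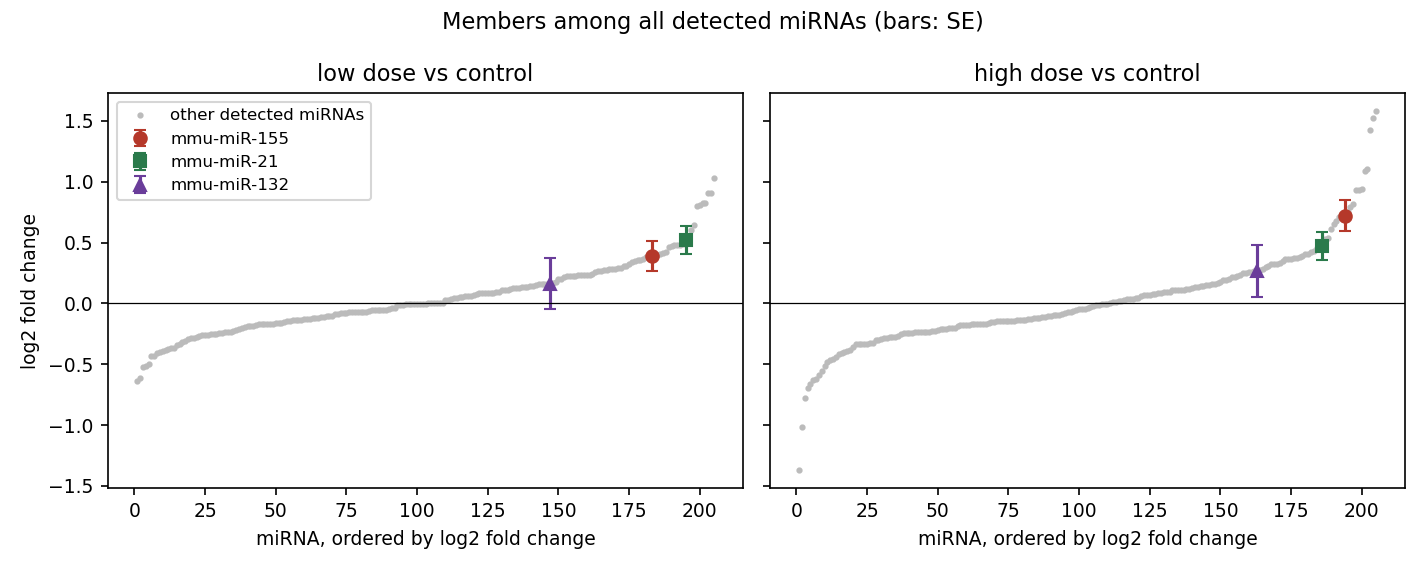
Log2 fold change against control (y axis) of all 205 detected miRNAs in order of size (x axis), at the low dose (left) and the high dose (right), with the members marked and bars for their SE. miR-155 stands at place 23 at the low dose and 12 at the high dose, and miR-21 at places 11 and 20.

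The miR-155 probe is 1 of 4 on the panel whose name carries a factor above 0, here 0.022, and neither labels nor file header say how it is used. Such a factor may be meant to be multiplied by the count of the brightest positive control, POS_A, and subtracted. The counts before normalization were 374, 354 and 360 in control mice, 469, 518, 577 and 545 in low dose mice and 510, 659, 503 and 694 in high dose mice. The product of factor and POS_A count was 499, 528 and 535 in control lanes, 518, 481, 463 and 446 in low dose lanes, and 438, 504, 392 and 462 in high dose lanes. The measured count exceeded the product in 0 of 3 control mice, 3 of 4 low dose mice and 4 of 4 high dose mice. What was left above it in the high dose mice was 72.1, 155, 111 and 232 counts.

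POS_A was 17817 to 22902 counts in the high dose lanes and 22672 to 24317 in the control lanes, which overlap through high dose mouse 2, above control mouse 1. With the product taken as background, the order of the groups is kept, but controls have no level left and no fold change can be given. The 1.65-fold change above holds for counts as deposited. Against the detection bound set by the negative controls, which ranged from 57.1 to 143 counts over the lanes, miR-155 was 4.83 to 6.55 times the bound in control mice, 3.81 to 7.55 times in low dose mice and 6.73 to 10.2 times in high dose mice. Low dose mouse 4, whose lane had the highest bound, stood below all control mice on this scale.

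**Figure D3:**
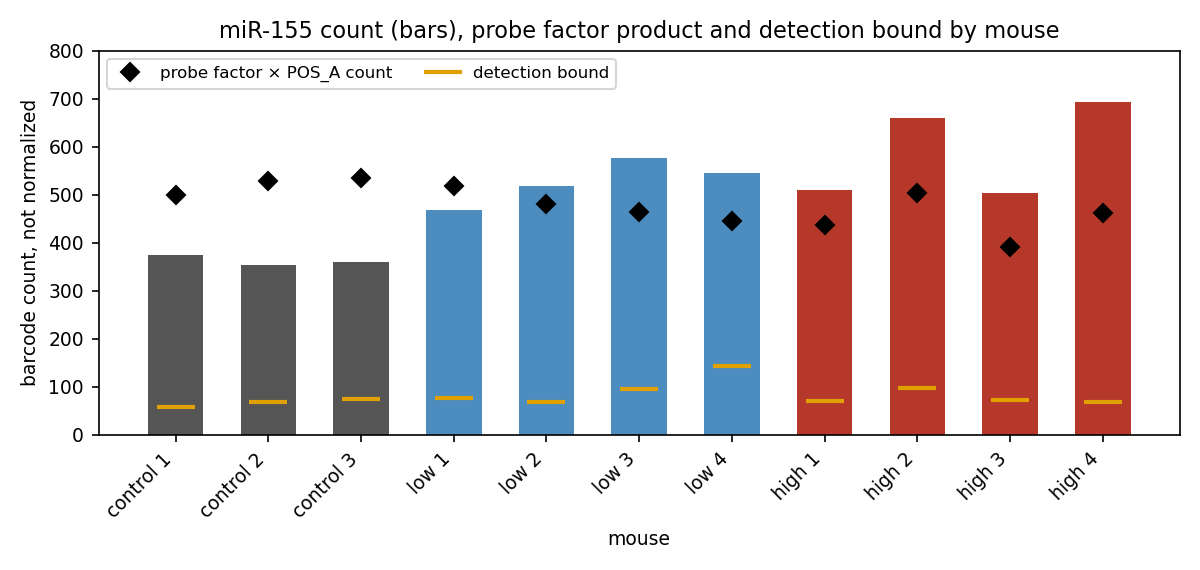
miR-155 barcode count before normalization (bars, y axis from 0) in each of the 11 mice (x axis), with the probe factor times the POS_A count (diamonds) and the lane's detection bound (lines). All 3 control bars and low dose mouse 1 end below their diamonds, and the other 7 bars end above them.

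miR-21 was higher than control at both doses by about the same amount, 1.44-fold at the low dose and 1.39-fold at the high dose. Its normalized counts were 6238, 6403 and 6666 in control mice, 8677, 9684, 9225 and 9366 in low dose mice, and 7732, 7637, 10054 and 10236 in high dose mice. No LPS mouse overlapped the controls. At the high dose the 4 mice fell into a lower pair, mice 1 and 2, and a higher pair, mice 3 and 4, which lay below and above all low dose mice. The means were 6436 ± 216 in controls (SD, n = 3), 9238 ± 420 at the low dose and 8915 ± 1423 at the high dose (SD, n = 4 each). miR-21 made up between 1.03% and 1.82% of all miRNA counts of a lane, so counting error was small beside the spread between mice (1.10% against a coefficient of variation of 16.0% at the high dose).

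The log2 change of miR-21 was 0.47 ± 0.12 SE at the high dose (interval 0.22 to 0.72, edgeR adjusted p = 0.0131) and 0.52 ± 0.12 at the low dose (interval 0.27 to 0.77, edgeR adjusted p = 0.0195). High dose mice differed from low dose mice by -0.051 ± 0.11, with an interval of -0.28 to 0.18 (edgeR adjusted p = 0.888), so a difference of up to 0.28 in size between the doses is within the error. The low dose call ended without control mouse 1, 2 or 3, or without low dose mouse 2 or 4, with adjusted p from 0.0521 to 0.0886 and a log2 change of 0.50 to 0.55. The high dose call ended without control mouse 1 (edgeR adjusted p = 0.0543, log2 change 0.46).

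miR-132 did not pass at either dose, and its spread between mice was the widest of the members. Its normalized counts were 300.2, 372 and 391 in control mice, 471, 379, 321 and 414 in low dose mice, and 574, 273, 389 and 472 in high dose mice. The groups overlapped: 2 of 4 mice at each dose stood above the highest control mouse, and high dose mouse 2 was the lowest of all 11 while high dose mouse 1 was the highest. The means were 354 ± 47.9 in controls (SD, n = 3), 396 ± 62.8 at the low dose and 427 ± 127 at the high dose (SD, n = 4 each). The high dose coefficient of variation of 29.8% was far above the 5.11% of counting error.

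The log2 change of miR-132 was 0.27 ± 0.21 SE at the high dose, with an interval of -0.19 to 0.73 (edgeR adjusted p = 0.389), and 0.16 ± 0.21 at the low dose, with an interval of -0.30 to 0.62 (edgeR adjusted p = 0.672). A change as large as that of miR-21 is inside both intervals and could not be detected with this spread. Without high dose mouse 2 the high dose change was 0.43 ± 0.17 (edgeR adjusted p = 0.113). miR-212, the neighbour with the same seed, could not be read: its 13 to 33 counts stayed below the detection bound in all 11 lanes, and below the mean of the negative controls in all of them.

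Ratios between members within a mouse do not depend on how lanes are scaled, so they show whether the members moved apart. They hold for counts as deposited. With the probe factor product taken as background, the ratios with miR-155 have no value in control mice. The log2 ratio of miR-155 over miR-21 was -4.12, -3.99 and -4.17 in control mice, -4.27, -4.20, -4.25 and -4.19 in low dose mice, and -3.59, -3.56, -4.37 and -3.84 in high dose mice. All low dose mice lay below all control mice, whereas 3 of the high dose mice lay above all others and high dose mouse 3 lay lowest of the 11. The difference in mean log2 ratio was 0.25 ± 0.18 SE for high dose against control, -0.13 ± 0.18 for low dose against control and 0.39 ± 0.17 for high against low dose.

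The ratio of miR-155 to miR-21 did not pass in an exact permutation test of the one-way F statistic over the 3 groups, with 11550 arrangements of the mice (p = 0.114, adjusted p = 0.342 over the 3 ratios tested). Without high dose mouse 3 the difference from control was 0.43 and the same exact test over the 3 groups gave an adjusted p of 0.00143. That mouse is the lowest on this ratio, and its gap to the next mouse, 0.596 of the group's range, is under Dixon's 95% critical value for an outlier. Leaving out any other of the 11 mice gave adjusted p from 0.266 to 0.482 in the same exact test. The ratio of miR-155 to miR-132 stood 0.48 ± 0.27 higher at the high dose than in control (adjusted exact permutation p = 0.369 over the 3 groups). The ratio of miR-21 to miR-132 stood 0.23 ± 0.26 higher (adjusted exact permutation p = 0.414 over the 3 groups). With all 11 mice no ratio passed, so a difference in response between members was not shown, nor that they respond alike.

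**Figure D4:**
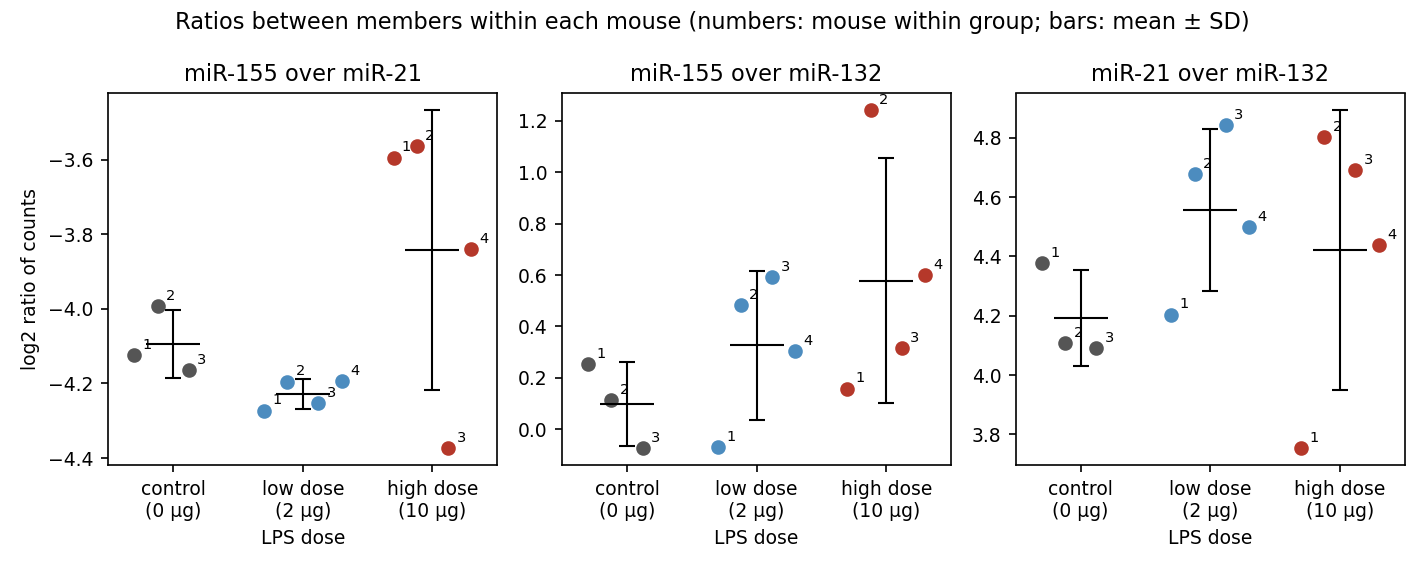
Log2 ratio of the counts of each pair of members within a mouse (y axes) at 0, 2 and 10 µg of LPS (x axes), with points numbered by mouse and bars for mean ± SD. The miR-155 to miR-21 ratio is above all control and low dose mice in high dose mice 1, 2 and 4, and lowest of all in high dose mouse 3.

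B2m, a messenger RNA probe for the light chain of MHC class I, which interferons induce, was counted in the same lanes. Whether it tracks the response of a mouse to LPS was not tested. Scaled to the positive controls it was 660 to 847 counts in control mice, 1677 to 3528 in low dose mice and 884 to 6161 in high dose mice. High dose mouse 2 had the 884 and the other high dose mice 4701 to 6161. That mouse had 646 normalized counts of miR-155, the second highest of its group, but 7637 of miR-21 and 273 of miR-132, the lowest of its group for both. High dose mouse 3, with the highest B2m, had the lowest miR-155 of its group and the second highest miR-21.

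All 5 listed leukocyte miRNAs (miR-142-3p, miR-142-5p, miR-223, miR-150 and miR-342-3p) were detected, and 0 of 5 passed at either dose, against 18.0% of all 205 miRNAs called in either direction at the high dose and 5.85% at the low dose. With 5 miRNAs a count of 0 is near those shares. Their summed normalized counts were 3905 to 5364 in control mice, 4896 to 5496 in low dose mice and 3676 to 4424 in high dose mice. The highest sum at the high dose was below that of the highest control mouse. Summed epithelial miRNAs were 35757 to 37637 in control mice, 29151 to 38384 at the low dose and 34418 to 38840 at the high dose. These sums are carried by the miR-200 family. At the high dose 1 of the 7 epithelial miRNAs rose (miR-203), 5 did not pass and 1 fell: miR-375, also known from endocrine cells, at a log2 change of -1.37 ± 0.27 SE (edgeR adjusted p = 0.00305). The 3 erythroid miRNAs summed to 1425 to 4188 in control mice, 1870 to 5445 at the low dose and 2250 to 3134 at the high dose, so the groups overlapped. Whether cell makeup had a part in the changes of the members was not tested.

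Among 18 other miRNAs known to respond to LPS or Toll-like receptors, 14 were detected. This list too was chosen with earlier results of these data known, so its counts are no independent support. At the high dose 3 of the 14 rose, where 10.2% of all 205 did, none fell and 11 did not pass, with a median log2 change of -0.075, against -0.034 over all 205. At the low dose 2 of the 14 rose, where 3.41% of all 205 did, none fell and 12 did not pass, with a median of 0.038, against -0.0015 over all. Those that rose at the high dose were miR-146a, a brake on Toll-like receptor signalling through Irak1 and Traf6, by 1.43 ± 0.24 SE, miR-203, an epithelial miRNA, by 1.58 ± 0.12, and miR-222, by 0.93 ± 0.14. Each of these 3 changes was numerically larger than the 0.72 of miR-155 for counts as deposited, and the differences were not tested. With the probe factor product taken as background, miR-155 has no fold change to set beside them. At the low dose miR-203 rose by 0.80 ± 0.12 and miR-222 by 0.91 ± 0.14, while miR-146a, at 0.82 ± 0.24, did not pass (edgeR adjusted p = 0.0548). miR-147, miR-9, miR-187 and miR-212 were not detected.

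The miRNAs most like each member were found by the root mean square difference of log2 normalized counts over the 11 mice, with each miRNA centred on its own mean. Dose differences are part of these values, so dose changes like the member's follow from the choice and are no separate result. Closest to miR-155 were miR-126-5p, from an endothelial gene, at 0.117, let-7c at 0.133 and miR-2183 at 0.161, against a median of 0.383 over the other 204 miRNAs. These 3 rose at the high dose by 0.71, 0.68 and 0.81, and did not pass at the low dose, with log2 changes of 0.28, 0.29 and 0.38. miR-126-3p, the other arm of the same hairpin as miR-126-5p, did not pass at the high dose, at -0.019 ± 0.12 (edgeR adjusted p = 0.929). Closest to miR-21 were miR-32 at 0.137, miR-30e at 0.146 and miR-19a at 0.152. Of these, miR-30e rose at the high dose by 0.43. miR-32 and miR-19a did not pass, at 0.30 and 0.29. None of these 3 passed at the low dose, with log2 changes of 0.31 for miR-32, 0.36 for miR-30e and 0.28 for miR-19a (edgeR adjusted p 0.0548 to 0.121).

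Closest to miR-132 were let-7i at 0.142, miR-1839-5p at 0.204 and miR-33 at 0.206, none of which passed at either dose. Between members the distance was 0.261 for miR-155 and miR-21, 0.326 for miR-21 and miR-132 and 0.355 for miR-155 and miR-132. No member was among the 3 nearest miRNAs of another, so these distances exceed the nearest ones by that fact alone. Over the other 204 miRNAs the median distance was 0.383 for miR-155, 0.327 for miR-21 and 0.358 for miR-132. The distances between members were below the medians of both members, some only narrowly. These distances describe the 11 libraries, which share the scaling of each lane, and those of miR-155 hold for counts as deposited.

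The size of the changes depended on how lanes were scaled. With scaling to the positive controls, the median log2 change over the 205 miRNAs was 0.12 at the high dose and 0.18 at the low dose. With scaling to the 4 messenger RNA probes, which include B2m, it was -0.39 and -0.20, and with the probes other than B2m 0.13 and 0.29. A scaling moves all miRNAs of a lane together, so the distance of a member from that median is nearly fixed in advance. It is therefore no test of the scaling. Relative to that median, miR-155 stood 0.75 to 0.77 higher at the high dose under all 7 scalings, and miR-21 0.49 to 0.54. Relative to the same median miR-132 stood 0.22 to 0.32 higher. With the messenger RNA probes including B2m, no member passed at either dose. miR-155 then stood at 0.38 ± 0.37 SE and miR-21 at 0.10 ± 0.35 at the high dose, and miR-132 turned to -0.17 ± 0.37.

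**Figure D5:**
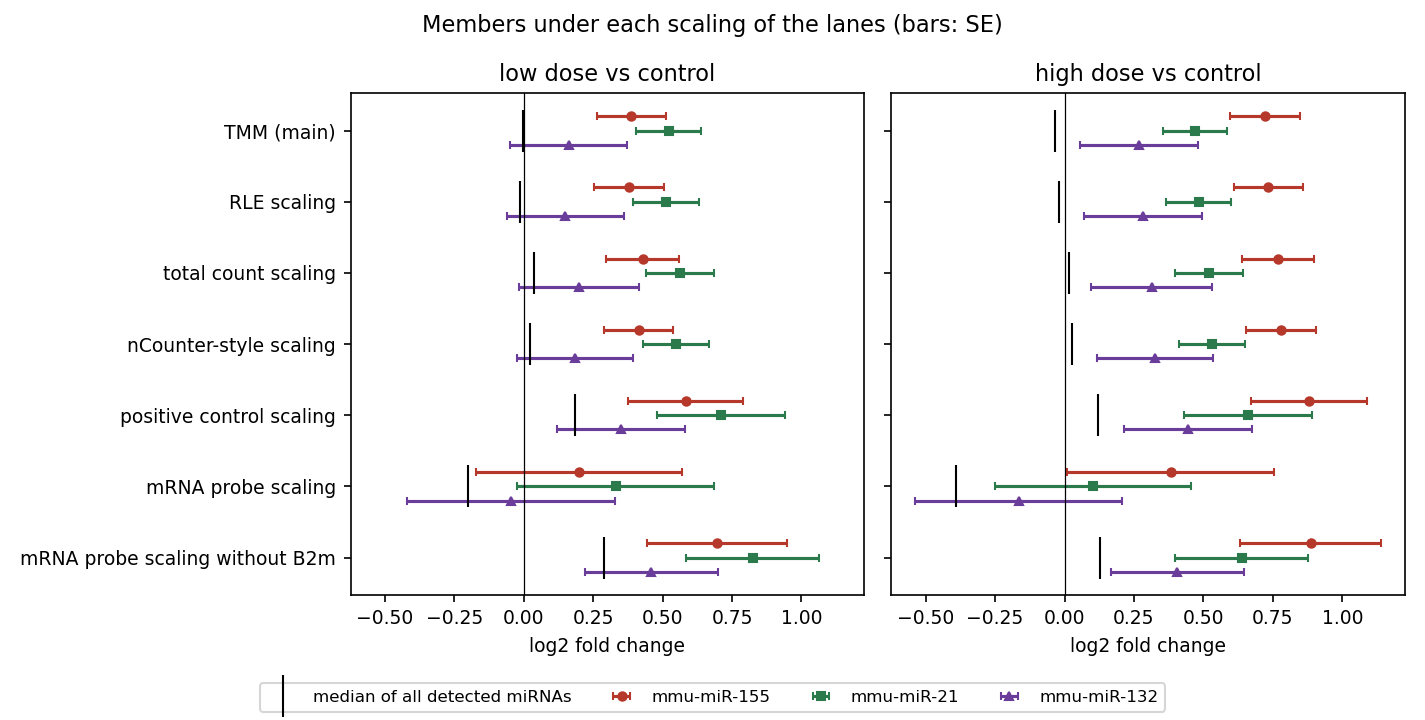
Log2 fold change against control (x axes) of the 3 members under 7 scalings of the lanes (y axis), at the low dose (left) and the high dose (right), with bars for SE and a line for the median of all 205 detected miRNAs. Median and members shift together, since a scaling moves all miRNAs of a lane alike, and the errors widen with the messenger RNA probes.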

How the data were processed

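Per the labels, total RNA of 1 mouse per lane was counted on the nCounter Mouse v1.5 miRNA assay. The authors deposited barcode counts per probe, treated here as estimated counts, since the columns also hold a binding density that is not whole. All probe values were whole and rounding altered none. The labels and file headers record no normalization and name no counting software. Groups came from the sample titles.

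The filter on detection left 205 of 566 miRNAs. They were scaled with TMM and tested together, with the 3 groups as 1 factor, by edgeR 4.0.16 quasi-likelihood F-tests (R 4.3.3), Benjamini-Hochberg adjusted over all 205, with a threshold of 0.05. The standard error is the log2 change divided by the square root of F, and intervals are 95%. Ratios of members used an exact permutation test over mice, adjusted over 3 ratios. The fit was tested on simulated counts. Mice of a group differed beyond counting noise (chi-square per degree of freedom 17.3 to 92.3), and no lane was a copy of another.

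Named miRNAs were the members, miR-212, seed sharers in the RefSeq table, the 3 nearest in pattern to each member, and detected miRNAs of a list of LPS-responsive miRNAs. The control and messenger RNA probes and the cell type marker lists were read beside them. The members and lists were chosen with earlier results of these data known. Besides those quoted, 4 marker lists were summed. The smooth muscle miRNAs ran from 42288 to 54233 normalized counts in control mice, 40520 to 58621 at the low dose and 40614 to 50989 at the high dose. The ciliated cell miRNAs ran from 22252 to 32341 in control, 20702 to 26977 in low dose and 21375 to 27649 in high dose mice. The endothelial ones ran from 4840 to 6182 in control, 5124 to 5738 in low dose and 5329 to 6957 in high dose mice. The skeletal and cardiac muscle ones ran from 1046 to 1202 in control, 956 to 1448 in low dose and 407 to 1114 in high dose mice. The neuron and the ovary and oocyte lists each had 1 detected miRNA, and liver none.

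Alternatives covered other scalings, filters, background subtraction, DESeq2 1.42.0, limma-voom (limma 3.58.1), the design text's one-way test with least significant difference contrasts, fits to the compared groups only, a block for replicate number, and omission of each mouse in turn.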

Additional observations from a re-analysis of the deposited data

How the results depend on the processing

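Over 26 alternatives miR-155 at the high dose lost its call only with scaling to the 4 messenger RNA probes (log2 change 0.38). At the low dose miR-155 passed in the fit to the compared groups alone (0.39), and with the probe factor product subtracted (a fitted 8.85 that depends on the prior count and is no bound). Without adjustment over the 205 miRNAs, the design text's test passed miR-155 in 3 of 3 contrasts. The one-way p was 0.00174, and the least significant difference p was 0.0159 for low dose against control and 0.0256 between doses. On that reading miR-21 passed in 2 of 3 contrasts and miR-132 in 0 of 3. Of the 205 miRNAs, 61 had a one-way p under 0.05. The high dose call of miR-21 ended with scaling to the positive controls (0.66), to the messenger RNA probes (0.10) or to those without B2m (0.64), and with no filter (0.43). Its low dose call ended with scaling to the positive controls (0.71) or the messenger RNA probes (0.33), and with no filter (0.50). miR-132 turned to -0.17 at the high dose, -0.046 at the low dose and -0.12 between doses with the messenger RNA probes. Between doses it also turned to -0.054 with those without B2m and to -0.067 without high dose mouse 1. miR-21 turned there to 0.011 without high dose mouse 1 and 0.016 without mouse 2. The cause was not tested.

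Leaving out 1 mouse at a time gave 0.65 to 0.82 for miR-155 at the high dose, 0.35 to 0.44 at the low dose and 0.26 to 0.44 between doses. For miR-21 it gave 0.40 to 0.54, 0.50 to 0.55 and -0.12 to 0.016, and for miR-132 0.095 to 0.43, 0.053 to 0.25 and -0.067 to 0.27. High dose minus control log2 ratios ran from 0.16 to 0.43 for miR-155 over miR-21, 0.26 to 0.62 over miR-132, and 0.10 to 0.45 for miR-21 over miR-132.

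Deviations from the group means correlated at -0.29 to 0.40 between mice of the same replicate number. Mice of different numbers were not compared, so these values cannot tell whether the numbers pair mice. With the replicate block, miR-155, miR-21 and miR-132 stood at 0.67, 0.42 and 0.18 at the high dose and 0.34, 0.48 and 0.09 at the low dose, and no member's call changed.

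The number of miRNAs called at the high dose was 37, against 18 with positive controls, 2 with messenger RNA probes and 16 without B2m. At the low dose it was 12, against 19 with total counts, 20 with DESeq2, 3 to 13 without 1 mouse, and 0 in edgeR with messenger RNA probes (7 at unadjusted p under 0.05). Between doses it was 1, against 4 with DESeq2, 2 with the design text's test and 1 to 14 without 1 mouse. For this count the p-values of the design text's test were adjusted over the 205 miRNAs. The number between doses was 0 in edgeR with those 3 scalings (10, 5 and 10 at unadjusted p under 0.05).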
